A study of Mus musculus with 20 samples.

Results

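Myoglobin, carbonic anhydrase III, the creatine kinases, adenylate kinase 1 and the AMP deaminases carry oxygen, hydrate carbon dioxide and keep the ATP level steady in muscle fibres. The 8 genes Mb, Car3, Ckm, Ckmt2, Ckb, Ak1, Ampd1 and Ampd3 were taken by symbol, through their Ensembl identifiers, from a table of 56941 gene rows in soleus muscle of C57BL/6J mice. All 8 were found and all 8 passed the filter on low counts, with at least 80 reads in every library. The 10 control mice were sham-irradiated. The 10 mice of the group labelled space, called exposed here, underwent hind-limb unloading for 14 days, ionizing radiation and a stress hormone treatment, which the design text describes as stress through the diet. The exposures were applied together and cannot be told apart. Each library came from the whole soleus of a single hind limb, and the sources used here do not state the age of the mice. The p-values reflect only the spread among these libraries.

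The soleus is rich in slow and oxidative fibres. In such fibres myoglobin stores oxygen and eases its passage to mitochondria. Creatine kinase moves a phosphate group between ATP and creatine: the mitochondrial form charges creatine where ATP is made, and the cytosolic form recharges ATP beside the myosin heads. Adenylate kinase makes ATP and AMP from ADP, and AMP deaminase removes the AMP by turning it into IMP. Fast glycolytic fibres are known for much cytosolic creatine kinase and AMP deaminase, slow oxidative fibres for myoglobin, mitochondrial creatine kinase and, in rodents, carbonic anhydrase III.

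Library totals ran from 17336017 to 43424464 reads counted in genes, and 16778 genes were tested with edgeR. Levels are read counts normalised to a common library total (CPM), and a gene was called when its Benjamini-Hochberg adjusted p over all tested genes was under 0.05. Exposed replicates 1 to 4 stood apart. The summed level of 6 Schwann cell markers was 385.7 to 1160 CPM in these 4 libraries, 65.7 to 132.6 CPM in exposed replicates 5 to 10 and 54.8 to 125.2 CPM in controls. Results were therefore also computed without them. Among markers of the tissue, the type 2A myosin Myh2 fell 31.2-fold, from 10020 to 320.9 CPM (adjusted p = 9.53e-11 by edgeR), and the slow myosin Myh7 fell 2.19-fold, from 10180 to 4650 CPM (adjusted p = 2.84e-05 by edgeR). The fast myosins Myh1 and Myh4 rose 4.19-fold and 20.9-fold in exposed muscle. The part of these fibre markers in the members' changes was not tested.

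The 8 genes did not move as a block. Ckm and Ampd1 rose, Mb, Car3, Ckmt2, Ckb and Ampd3 fell, and Ak1 did not pass the test. Over all tested genes 57.6% were called, 28.7% as higher and 28.9% as lower, so that 7 called members of 8 stand against a high background. In 5 members, Mb, Car3, Ckm, Ckmt2 and Ampd1, the CPM ranges of the groups did not overlap, as was the case for 17.4% of all tested genes. Car3, Ckm and Ckmt2 were called with a change of at least 2-fold, as were 7.19% of all tested genes. The median log2 fold change was -0.60 over the members and 0.02 over all tested genes. Because whole muscle was sampled, fewer fibres of a type and less RNA per fibre cannot be told apart here.

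**Figure D1:**
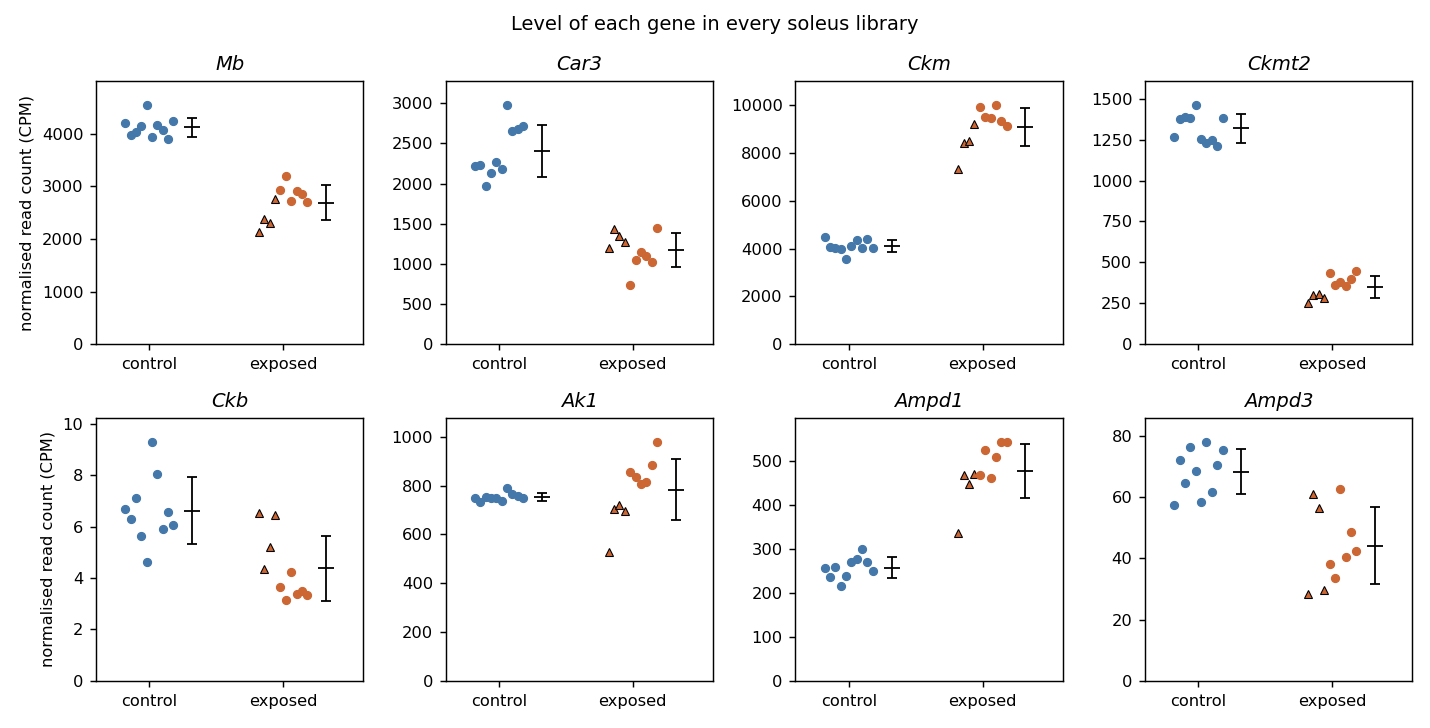
Level of each of the 8 genes in CPM (vertical axes, each from 0) in the 10 control and 10 exposed libraries; points are libraries, triangles are exposed replicates 1 to 4, and bars are the mean and SD of each group. Ckm and Ampd1 lay higher in every exposed library, and Mb, Car3 and Ckmt2 lower. On this scaled level Ak1 lay below the controls in exposed replicates 1 to 4 and above them in replicates 5 to 10.

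Myoglobin, the oxygen store, was among the 30 most abundant tested genes. Mb ranged from 3899 to 4542 CPM in controls, with a median of 4101, and from 2122 to 3188 CPM in exposed muscle, with a median of 2743. The highest exposed library thus lay below the lowest control. The mean fell from 4117 ± 187 to 2688 ± 328 CPM (SD, n = 10 per group), a 1.53-fold decrease (log2 difference -0.61 ± 0.06 SE, adjusted p = 1.27e-08 by edgeR). Exposed replicates 1 to 3 were the lowest, at 2122 to 2368 CPM, and all 6 libraries of exposed replicates 5 to 10 held 2701 CPM or more. Without exposed replicates 1 to 4 the decrease was 1.42-fold (adjusted p = 1.08e-08 by edgeR). In the annotation used here exons of Mb overlap those of Apol6 on the opposite strand. The sources used here do not state whether counting used strand, and without strand reads of the pair cannot be told apart. As counted, Apol6 fell from 131.6 to 40.1 CPM (adjusted p = 9.11e-16 by edgeR), far below the level of Mb in both groups. The count of Apol6 has the same limit, so it does not show how many such reads were counted for Mb.

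Carbonic anhydrase III, a cytosolic enzyme that is abundant in slow fibres and in fat cells, fell further than myoglobin. Car3 ranged from 1965 to 2979 CPM in controls (median 2254) and from 743 to 1445 CPM in exposed muscle (median 1173). The ranges did not overlap, and the spread among controls was wider than for Mb, with a coefficient of variation of 13.6% against 4.54%. The mean fell 2.04-fold, from 2405 ± 327 to 1177 ± 213 CPM (SD, n = 10 per group; log2 difference -1.03 ± 0.11 SE, adjusted p = 5.66e-09 by edgeR). Here exposed replicates 1 to 4, at 1204 to 1431 CPM, were not the lowest: the lowest was replicate 5, at 743.3 CPM, and the highest replicate 10, at 1445 CPM. None of the fat cell markers was called lower. The summed level of 6 adipocyte markers ranged from 26.2 to 186.2 CPM in controls and from 27.4 to 388.8 CPM in exposed muscle, with 157.6 to 388.8 CPM in replicates 1 to 4 and 27.4 to 167.9 CPM in replicates 5 to 10. Retn was called higher and the other 5 were not called. Without replicates 1 to 4 the fall of Car3 was 2.20-fold (adjusted p = 4.03e-07 by edgeR), and the part of fat in its level was not tested.

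The creatine kinase genes parted company. The cytosolic muscle form Ckm rose, the sarcomeric mitochondrial form Ckmt2 had the largest change of the 8 genes, a fall, and the brain form Ckb, which is scarce in this muscle, fell as well. The bases upstream of their RefSeq start sites are shown with those of Mb, because these genes moved in different directions. They come from RefSeq windows on GRCm38.p6, whereas the counts were made on GRCm39, and 6 of the 8 members were found in that table. Each sequence is the 250 bases before the start, with E-boxes (CANNTG, the core recognised by myogenic factors of the MyoD family) and matches to the MEF2 consensus in capitals.
Ckm, chr7:19410844-19411093, + strand: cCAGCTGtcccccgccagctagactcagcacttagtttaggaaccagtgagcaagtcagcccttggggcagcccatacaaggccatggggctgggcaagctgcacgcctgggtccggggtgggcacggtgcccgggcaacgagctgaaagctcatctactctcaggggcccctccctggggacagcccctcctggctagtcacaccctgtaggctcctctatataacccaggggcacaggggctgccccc
Ckmt2, chr13:91876886-91877135, - strand: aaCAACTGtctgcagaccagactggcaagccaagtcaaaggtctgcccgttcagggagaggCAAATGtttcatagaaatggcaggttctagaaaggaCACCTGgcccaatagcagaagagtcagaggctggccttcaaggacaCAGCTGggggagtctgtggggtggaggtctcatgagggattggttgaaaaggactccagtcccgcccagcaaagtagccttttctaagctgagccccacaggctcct
Ckb, chr12:111672339-111672588, - strand: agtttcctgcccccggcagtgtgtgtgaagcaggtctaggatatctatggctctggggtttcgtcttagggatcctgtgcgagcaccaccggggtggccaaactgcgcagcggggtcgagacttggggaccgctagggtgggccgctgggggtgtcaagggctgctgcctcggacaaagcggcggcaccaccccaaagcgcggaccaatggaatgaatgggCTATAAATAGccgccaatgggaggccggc
Mb, chr15:77022788-77023037, - strand: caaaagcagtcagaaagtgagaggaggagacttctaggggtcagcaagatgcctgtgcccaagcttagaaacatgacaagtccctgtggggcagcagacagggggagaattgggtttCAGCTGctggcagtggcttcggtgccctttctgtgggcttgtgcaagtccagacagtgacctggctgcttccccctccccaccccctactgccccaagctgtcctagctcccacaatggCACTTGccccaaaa
Searched on both strands, the windows held 1 E-box upstream of Ckm, 4 of Ckmt2, 0 of Ckb and 2 of Mb. An E-box occurred in 66.2% of all 32851 RefSeq windows of this length. A single MEF2 match, in Ckb, was found among the 4 windows, and 2.9% of all windows held such a match. It overlaps the only TATAAA of the 4 windows, a motif present in 12.4% of all windows. AAGGTCA, the site of oestrogen-related receptors, was in none of the 4 windows and in 4.1% of all. CCACCC had 1 match each upstream of Mb, Ckm and Ckmt2 and 3 upstream of Ckb, and occurred in 28.1% of all windows. The CArG box was in none of the 4 windows and in 1.5% of all. These matches describe letters only, and nothing follows from them about binding.

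Ckm, which encodes the cytosolic creatine kinase bound in part to the sarcomere, ranged from 3576 to 4467 CPM in controls (median 4050) and from 7339 to 9999 CPM in exposed muscle (median 9263). All 10 exposed libraries lay above every control. The mean rose 2.21-fold, from 4100 ± 257 to 9072 ± 801 CPM (SD, n = 10 per group; log2 difference 1.15 ± 0.05 SE, adjusted p = 8.27e-14 by edgeR). Its share of all counts went from 0.399% to 0.929%. Exposed replicate 1 was the lowest exposed library, and without replicates 1 to 4 the rise was 2.34-fold (adjusted p = 4.85e-14 by edgeR). Exons of Ckm overlap an opposite-strand transcript, A930016O22Rik, at a mean of 4.54 CPM before scaling.

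Ckmt2, the creatine kinase between the mitochondrial membranes, ranged from 1212 to 1462 CPM in controls (median 1320) and from 249 to 450 CPM in exposed muscle (median 359.5). The highest exposed library lay far below the lowest control. The mean fell 3.75-fold, from 1319 ± 87.0 to 351.8 ± 67.4 CPM (SD, n = 10 per group; log2 difference -1.91 ± 0.09 SE, adjusted p = 2.92e-14 by edgeR). Of all tested genes, 98.6% had a smaller change than Ckmt2. Exposed replicates 1 to 4 held 249.3 to 304.9 CPM and replicates 5 to 10 held 355.9 to 450 CPM, so that these sets did not overlap. Without replicates 1 to 4 the fall was 3.30-fold (adjusted p = 1.39e-14 by edgeR).

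Ckb, the form that predominates in brain and smooth muscle, ranged from 4.62 to 9.30 CPM in controls (median 6.43) and from 3.16 to 6.52 CPM in exposed muscle (median 3.94). The ranges overlapped, and 9 of 10 exposed libraries lay below the control mean of log2 CPM. The mean fell 1.50-fold, from 6.62 ± 1.31 to 4.38 ± 1.27 CPM (SD, n = 10 per group; log2 difference -0.59 ± 0.15 SE, adjusted p = 0.00123 by edgeR). Exposed replicates 1 to 4 held 4.36 to 6.52 CPM, inside or just below the control range, and replicates 5 to 10 held 3.16 to 4.22 CPM, below every control. The 4 libraries with more Ckb were those with more Schwann cell marker RNA, and the part of nerve in the level of Ckb was not tested. Without them the fall was 1.86-fold (adjusted p = 3.04e-06 by edgeR). The summed level of 4 smooth muscle markers was 84.1 to 135.7 CPM in controls and 93.2 to 126.7 CPM in exposed muscle, and none of the 4 was called.

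Levels of different genes can be compared only per length of exon. The length used was the union of all annotated exons of a gene: 1492 bases for Mb, 2913 for Ckm, 1486 for Ckmt2 and 2895 for Ckb. The transcripts present may be shorter, so the order of genes and the shares below depend on these lengths. On that scale (CPM per kilobase) Mb led in controls at 2759 ± 125, followed by Ckm at 1408 ± 88.3, Ckmt2 at 887.8 ± 58.6, Car3 at 839.3 ± 114, Ak1 at 290.3 ± 6.23, Ampd1 at 72.3 ± 6.69, Ampd3 at 12.2 ± 1.33 and Ckb at 2.29 ± 0.451 (SD, n = 10). The levels of Ckmt2 and Car3 differed by less than the SD of Car3. In exposed muscle Ckm was first at 3114 ± 275 CPM per kilobase and Mb second at 1802 ± 220. The next were Car3 at 410.7 ± 74.3, Ak1 at 301.7 ± 48.3, Ckmt2 at 236.7 ± 45.4, Ampd1 at 134.3 ± 17.1, Ampd3 at 7.84 ± 2.23 and Ckb at 1.51 ± 0.438 (SD, n = 10). Ak1 and Ckmt2 lay within the sum of their SDs of each other. The sum of the 3 creatine kinase genes was 2298 ± 53.3 CPM per kilobase in controls and 3352 ± 308 in exposed muscle. Within that sum Ckmt2 made up 38.7 ± 2.93% in controls and 7.03 ± 0.939% in exposed muscle, and Ckm 61.2 ± 2.92% and 92.9 ± 0.927%. No library lay between the highest exposed share of Ckmt2, 8.82%, and the lowest control share, 35.0%.

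Adenylate kinase 1, the main cytosolic form in muscle, had a level that differed little between group means and much between exposed libraries. Ak1 ranged only from 731.4 to 790.2 CPM in controls (median 748.7) and from 528.5 to 979.8 CPM in exposed muscle (median 811.1). The means were 752.7 ± 16.2 and 782.4 ± 125 CPM (SD, n = 10 per group; log2 difference 0.06 ± 0.08 SE, adjusted p = 0.529 by edgeR). The coefficient of variation was 2.15% in controls and 16.0% in exposed muscle. All of exposed replicates 1 to 4, at 528.5 to 720.1 CPM, lay below every control, and all of replicates 5 to 10, at 808.2 to 979.8 CPM, lay above every control. This split depends on the scaling, whose factors were 1.05 to 1.16 in exposed replicates 1 to 4 and 0.931 to 1.04 in controls. As a mean share of all counts, without these factors, Ak1 held 0.07317% in controls and 0.07225% in replicates 1 to 4. The latter mean covers unlike libraries. Replicate 1 had the lowest share, with 21167 Ak1 reads of 34571139. Replicates 2, 3 and 4 held 19547 of 26345395, 29985 of 38969271 and 22691 of 29609262. In replicates 5 to 10 the mean share was 0.08487%. Without replicates 1 to 4, Ak1 was 1.15-fold higher and was called (adjusted p = 0.000301 by edgeR). It was also called with library size alone as the scale (log2 difference 0.126, adjusted p = 0.047 by edgeR). The 4 libraries that were low on the scaled level are those with more Schwann cell marker RNA. The part of nerve in the level of Ak1 was not tested.

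**Figure D2:**
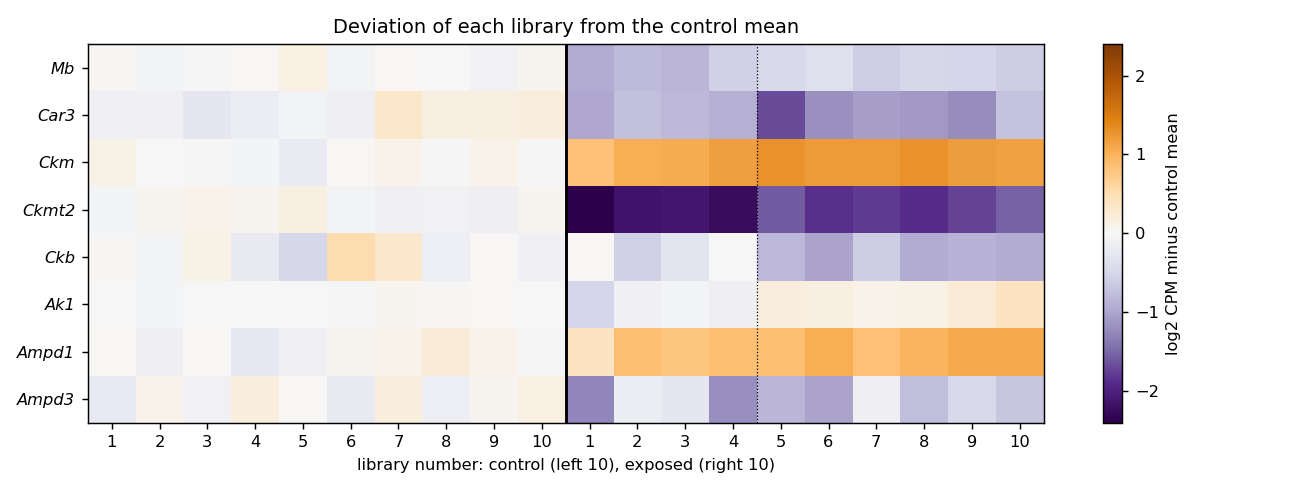
Deviation of log2 CPM from the control mean (colour) for the 8 genes (rows) in each library (columns), controls on the left and exposed libraries on the right, with a dotted line after exposed replicate 4. Ckm and Ampd1 were raised and Mb, Car3 and Ckmt2 lowered in all 10 exposed libraries. On this scaled level Ak1 changed side between replicates 4 and 5.

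The AMP deaminases moved in opposite directions. Ampd1, the form of muscle fibres and the most abundant of the family there, ranged from 214.9 to 299.7 CPM in controls (median 256.6) and from 335.8 to 543 CPM in exposed muscle (median 468.7). The ranges did not overlap, although exposed replicate 1, at 335.8 CPM, lay well under the next lowest exposed library, at 446.1 CPM. The mean rose 1.86-fold, from 256.6 ± 23.7 to 476.5 ± 60.6 CPM (SD, n = 10 per group; log2 difference 0.89 ± 0.08 SE, adjusted p = 1.38e-10 by edgeR). Ampd3, the form known from red blood cells and found at a low level in many tissues, ranged from 57.5 to 78.2 CPM in controls (median 69.6) and from 28.3 to 62.6 CPM in exposed muscle (median 41.4). These ranges overlapped through exposed replicates 2 and 7, at 60.9 and 62.6 CPM, while replicates 1 and 4 were the lowest at 28.3 and 29.6 CPM. The mean fell 1.55-fold, from 68.4 ± 7.48 to 44.1 ± 12.6 CPM (SD, n = 10 per group; log2 difference -0.63 ± 0.14 SE, adjusted p = 0.000504 by edgeR), and all 10 exposed libraries lay below the control mean. The summed level of 5 red blood cell markers ranged from 29.2 to 54.6 CPM in controls and from 11.3 to 51.4 CPM in exposed muscle, with none of the 5 called, and their part in the fall of Ampd3 was not tested. Exons of Ampd3 overlap Rnf141 on the opposite strand, which stood at 25.2 CPM in both groups.

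Ratios between members within a library depend little on how libraries are scaled. For 5 pairs the log2 ratio of CPM was compared between groups by a 2-sided permutation test with 100000 resamples, adjusted over the 5. The Ckmt2 to Ckm ratio went from -1.64 ± 0.18 to -4.71 ± 0.20 (SD, n = 10 per group), an 8.41-fold fall (difference -3.07 ± 0.09 SE). The Ampd3 to Ampd1 ratio fell 2.96-fold (difference -1.56 ± 0.15 SE), the Ckb to Ckm ratio 3.38-fold (difference -1.76 ± 0.17 SE) and the Ak1 to Ckm ratio 2.15-fold (difference -1.10 ± 0.06 SE). In these 4 ratios every exposed library lay below every control, and each had a permutation adjusted p = 1.25e-05, from an unadjusted 1e-05, the smallest that the resamples can give. They are not separate results from the levels above. Ckm was higher and Ckmt2 lower in every exposed library, so the separation of their ratio was already fixed. The ratios of Ckmt2, Ckb and Ak1 share Ckm. Ak1 itself was not called, and its ratio largely restates the rise of Ckm (log2 difference 1.15). The Car3 to Mb ratio fell less, by 0.42 ± 0.14 SE on the log2 scale (1.34-fold, permutation adjusted p = 0.00822). For this pair the groups overlapped, with controls from -1.04 to -0.48 and exposed libraries from -1.98 to -0.73. Exposed replicates 1 to 4 held ratios of -1.12 to -0.73, close to the controls, and replicates 5 to 10 ratios of -1.98 to -0.90. Without replicates 1 to 4 the difference of Car3 to Mb was -0.65 (exact permutation adjusted p = 0.000624).

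**Figure D3:**
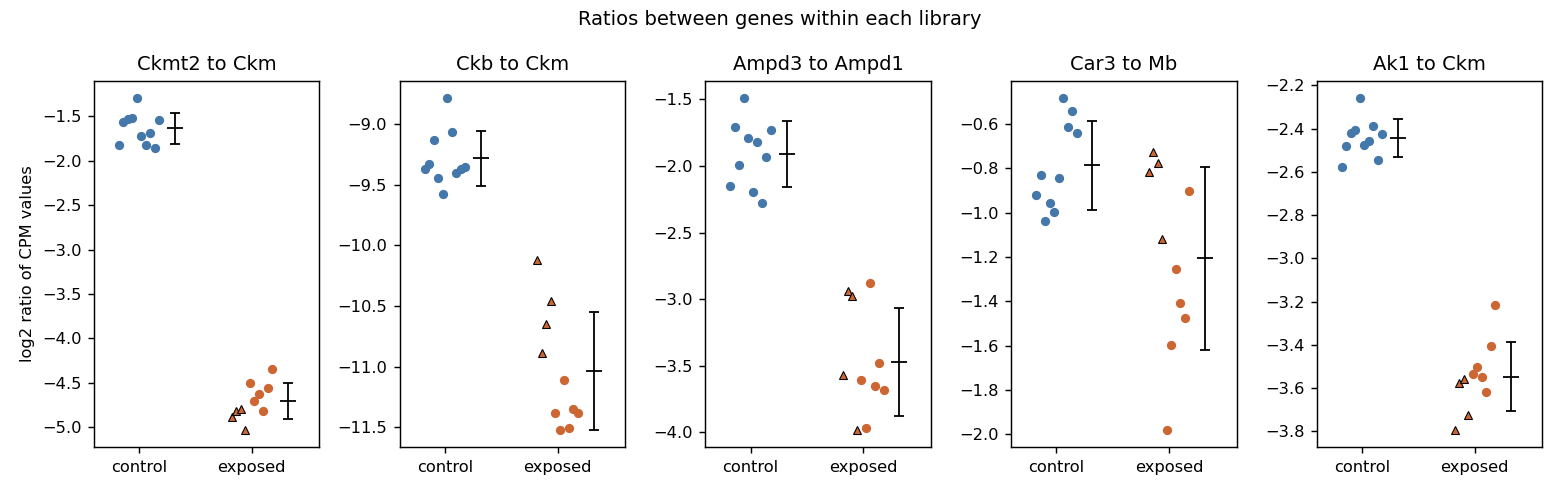
log2 ratio of CPM between members within each library for 5 pairs (vertical axes do not start at 0); points are libraries, triangles are exposed replicates 1 to 4, bars are the mean and SD. Control and exposed libraries were apart for 4 pairs and overlapped for Car3 to Mb.

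Genes of the surrounding pathways were taken from 7 lists of 65 genes. Of these 53 were tested, 15 were higher, 21 lower and 17 not called, and the median log2 fold change was 0.02, as over all tested genes. That is 36 called genes of 53, beside the 57.6% called over all tested genes. The counts of each list below stand beside 28.7% of all tested genes called higher and 28.9% called lower. Without exposed replicates 1 to 4, 17 were higher and 19 lower. Near the creatine kinases, Slc6a8, the creatine transporter of the cell membrane, ranged from 171.7 to 230.1 CPM in controls and from 96.7 to 122.3 CPM in exposed muscle, a 1.88-fold fall (adjusted p = 9.16e-13 by edgeR). Gatm, which catalyses the first step of creatine synthesis, rose 2.89-fold (adjusted p = 0.00264 by edgeR), but this rested on exposed replicates 1 to 4, which held 15.3 to 35.0 CPM against 5.01 to 7.37 in replicates 5 to 10 and 3.36 to 7.18 in controls. Without them Gatm was not called (1.24-fold, adjusted p = 0.0645 by edgeR). Gamt, which completes the synthesis, was not called, and Ckmt1, the other mitochondrial creatine kinase, was under the filter on low counts.

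Mitochondrial carriers of adenine nucleotides and phosphate and channels of the outer membrane were mostly lower. Of 6 genes, 5 were lower and 1 was higher, beside 28.9% and 28.7% of all tested genes. Tested against a fold of 1.2 (edgeR glmTreat), Vdac1, Vdac2 and Vdac3 lost their call. Slc25a3, the phosphate carrier, fell 1.69-fold from 732.7 ± 32.9 CPM (SD, n = 10; adjusted p = 4.96e-11 by edgeR). Slc25a4, the main ADP/ATP carrier of muscle, fell 1.41-fold from 2055 ± 53.1 to 1455 ± 224 CPM (SD, n = 10 per group; adjusted p = 1.97e-06 by edgeR), and its isoform Slc25a5 fell 1.51-fold (adjusted p = 2.77e-09 by edgeR). Vdac1, a channel of the outer membrane, rose 1.26-fold (adjusted p = 4.61e-05 by edgeR). Vdac3 and Vdac2, channels of the same family, were 1.18-fold and 1.12-fold lower; Vdac2 was not called without exposed replicates 1 to 4 (adjusted p = 0.12 by edgeR).

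The other adenylate kinases did not share a direction. Of 8 listed, 5 were tested. Ak4, a mitochondrial form at a low level, fell 2.25-fold, from 2.77 ± 0.527 to 1.24 ± 0.355 CPM (SD, n = 10 per group; adjusted p = 6.64e-07 by edgeR), and Ak3, the matrix form, rose 1.17-fold (adjusted p = 0.000166 by edgeR). Ak5, a cytosolic form known from brain, was not called (log2 difference 0.94, adjusted p = 0.0908 by edgeR), but without exposed replicates 1 to 4 it was 1.72-fold lower and called (log2 difference -0.78, adjusted p = 0.012 by edgeR). Of 12 genes of the purine nucleotide cycle and AMP handling, 11 were tested, 4 were lower and none was higher. Adk, adenosine kinase, fell 1.49-fold (adjusted p = 4.94e-09 by edgeR) and the nucleotidase Nt5c2 1.47-fold (adjusted p = 2.32e-07 by edgeR). The salvage enzymes Hprt and Aprt were 1.14-fold and 1.2-fold lower; Aprt was not called without exposed replicates 1 to 4 (adjusted p = 0.108 by edgeR) and Hprt was not called with library size alone as the scale. The cycle enzymes that return IMP to AMP, Adss1 and Adsl, were not called, with 1.07-fold and 1.05-fold higher means. Both were called higher without exposed replicate 1 alone, and without replicates 1 to 4, at 1.17-fold (adjusted p = 5.22e-05 by edgeR) and 1.12-fold (adjusted p = 0.000948 by edgeR). With all libraries kept, both were also called higher with upper-quartile scaling and with library size alone as the scale.

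Genes of AMP-activated protein kinase, which senses the AMP that adenylate kinase makes and AMP deaminase removes, were mostly higher. All 8 were tested, 6 were higher and 1 lower, beside 28.7% and 28.9% of all tested genes. Tested against a fold of 1.2 (edgeR glmTreat), only Prkag3 and Prkab2 kept their call. Prkag3, the gamma subunit found in fast glycolytic fibres, rose 5.17-fold, from 9.92 ± 2.35 to 51.2 ± 10.3 CPM (SD, n = 10 per group; adjusted p = 1.55e-11 by edgeR), and the ranges did not overlap. The catalytic subunit gene Prkaa2 rose 1.23-fold (adjusted p = 6.38e-06 by edgeR) and the beta subunit gene Prkab2 1.31-fold (adjusted p = 4.97e-05 by edgeR). Prkag1, the widespread gamma subunit, fell 1.16-fold (adjusted p = 4.68e-05 by edgeR). Without exposed replicates 1 to 4, Prkab1 and Prkag2 were not called and Prkaa1 was called higher (1.1-fold, adjusted p = 0.0337 by edgeR), as it also was without control replicate 8. Upper-quartile scaling, library size alone and a filter of at least 1 CPM in 10 libraries each gave a call for Prkaa1 as well. Prkag2 also lost its call without control replicate 5 or 8 or exposed replicate 2 or 3.

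Haem, the oxygen-binding group of myoglobin, is made by a chain of enzymes whose first step is Alas1. Of 12 listed genes of haem synthesis, haem oxygenase and other globins, 11 were tested, 7 were lower and 2 higher. Alas1 ranged from 75.4 to 100.7 CPM in controls and from 31.2 to 40.8 CPM in exposed muscle, a 2.49-fold fall (adjusted p = 1.45e-14 by edgeR). Alad, the next enzyme, fell 1.41-fold (adjusted p = 8.89e-06 by edgeR). Hmox1, the inducible enzyme of haem breakdown, rose 2.72-fold, from 5.23 ± 1.95 to 14.1 ± 4.26 CPM (SD, n = 10 per group; adjusted p = 1.76e-05 by edgeR), while the constitutive Hmox2 was 1.18-fold lower. Of the 15 other carbonic anhydrases 9 were tested, 4 were higher and 2 lower. Car8, a relative without catalytic activity, fell 1.98-fold (adjusted p = 9.66e-09 by edgeR), and Car14 and Car4, membrane enzymes that face outward, rose 1.50-fold (adjusted p = 1.1e-05 by edgeR) and 1.36-fold (adjusted p = 0.0011 by edgeR). Car11, a relative without catalytic activity, rose 1.67-fold from 1.02 CPM (adjusted p = 0.000525 by edgeR). The fourth gene called higher, Car5b, was not called without exposed replicates 1 to 4 (adjusted p = 0.614 by edgeR), nor without control replicate 3, 4, 5, 7, 8 or 9 or exposed replicate 1 or 4.

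**Figure D4:**
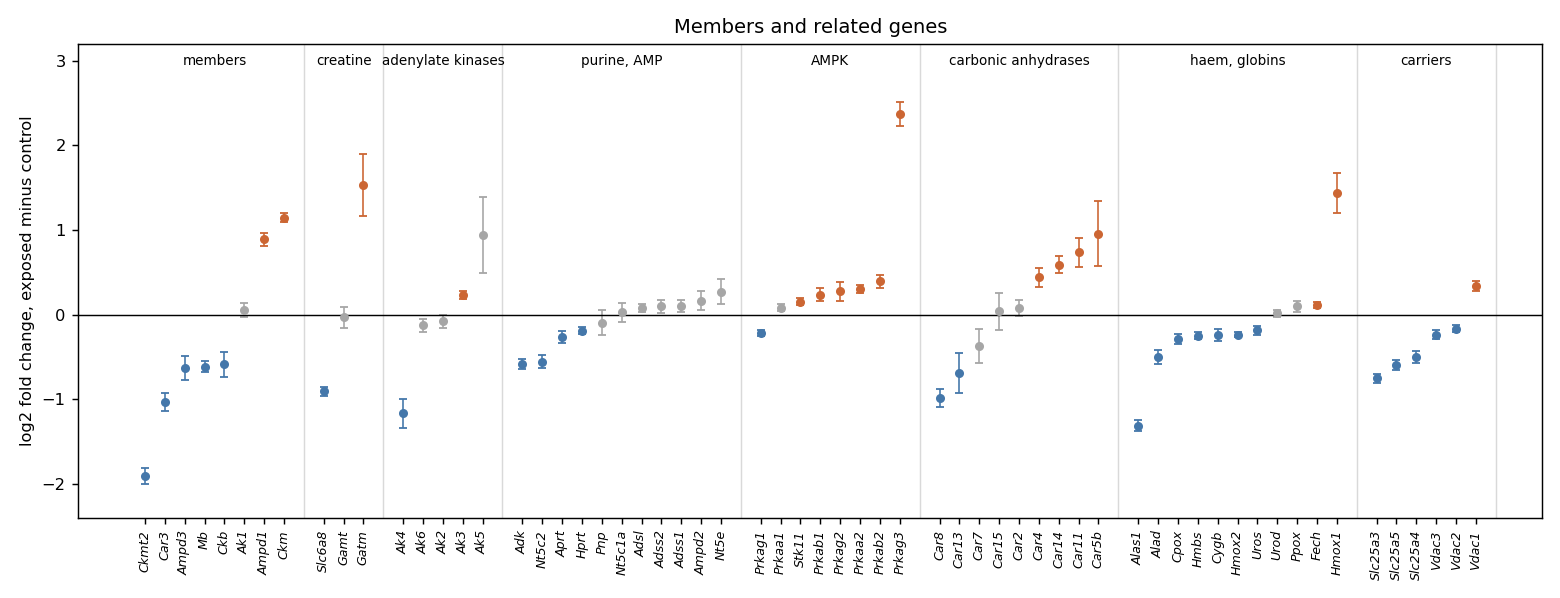
log2 fold change, exposed minus control, with its SE for the 8 members and the tested genes of 7 related lists; orange points were called higher, blue points lower and grey points were not called (edgeR). Ckmt2 was the lowest point of the members and Prkag3 the highest of the related genes.

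The genes whose levels followed each member most closely were sought over the 20 libraries, each taken as log2 CPM minus the mean of its own group, among tested genes at a mean level of 10 CPM or more. Genes with a provisional name (a Gm number, a Rik name or a clone name) were left out, which left 7257 genes. The measure is Pearson r, given as a description. The libraries share depth and the split between exposed replicates 1 to 4 and 5 to 10, so r within the 10 controls is given beside it. Ckm was followed most closely by Myoz1, Cuedc1 and Eno3 (r = 0.9, 0.899 and 0.893; in controls 0.859, 0.856 and 0.818). Ckmt2 was followed by Sod2, Slc25a11 and Dlst (r = 0.944, 0.939 and 0.928; in controls 0.789, 0.694 and 0.73). For Mb the closest were Nmnat3, Isca1 and Mpc1 (r = 0.874, 0.861 and 0.856; in controls 0.697, 0.489 and 0.736), and for Ampd1 they were Qser1, Eml1 and Thrb (r = 0.906, 0.883 and 0.88; in controls 0.794, 0.858 and 0.669). Ampd3 was followed by Xirp2, Lclat1 and Otulin (r = 0.904, 0.896 and 0.896; in controls 0.772, 0.588 and 0.686), and Ckb by Lamb1, Anxa1 and Cadm3 (r = 0.89, 0.886 and 0.884; in controls 0.847, 0.844 and 0.818). For Ak1 the closest were Lrrc20, Neurl1a and Slc25a11 (r = 0.944, 0.921 and 0.908), with 0.632, 0.467 and -0.026 within controls. Car3 had the lowest values, with Trappc3, Atp9a and Ncam1 (r = 0.754, 0.731 and 0.731; in controls 0.575, 0.799 and 0.465).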

How the data were processed

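RNA of 20 soleus muscles was sequenced as rRNA-depleted libraries from 90 ng of total RNA, per the labels' protocols. The authors deposited raw read counts per Ensembl gene, without normalization. Per the submitters' processing notes, MultiQC 1.15, Subread, featureCounts 1.5.1, edgeR and the build GRCm39 were used; the sources used here state neither their roles nor the strand setting, nor what was done with multi-mapping reads. Library codes were matched to the sample descriptions. Names came from a GENCODE M21 table for 51948 of 56941 rows (97.6% of counts), and exon lengths and overlaps from GENCODE M21 on GRCm38.

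Counts were fitted in R 4.3.3 with edgeR 4.0.16 (filterByExpr, minimum count 10 and total 15; TMM; robust quasi-likelihood; Benjamini-Hochberg over 16778 genes). Fold changes are edgeR estimates; the SE comes from log2 CPM (prior count 2), between the group means. Ratios used the same log2 CPM. The tests were checked on simulated data. For edgeR these held few changed genes, a fixed spread and no split among exposed libraries, so the check does not cover those features of the real data. The promoter search also covered CCACCC and the CArG box. Of the labels' shared replicate numbers, none paired libraries: correlations of same-numbered libraries' deviations ran from -0.132 to 0.0982.

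The members, lists and alternatives, the comparison without exposed replicates 1 to 4 included, were chosen with earlier results of these data known. Named were the members, the 3 genes most like each, and up to 4 called genes per list by smallest p; others are named for context, after their values were seen. Alternatives included DESeq2 1.42.0 and limma 3.58.1.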

Additional observations from a re-analysis of the deposited data

Results flagged for a closer look

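Of 26 groups of 10 values checked (8 genes and 5 ratios in each group), 2 had a sample far from the others by Dixon's criterion; chance flags about 1 in 20 groups. Control replicate 5 held 4542 CPM of Mb, and its gap to the next control was 0.481 of the control range. Exposed replicate 1 held 335.8 CPM of Ampd1, and its gap to the next exposed library was 0.532 of the exposed range.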

How the results depend on the processing

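All 7 called members kept their direction and their call under the 32 alternatives run, and so did the 5 ratios under their 23. The count of members stayed at 5 lower, and at 2 higher except where Ak1 was also called: with library size alone and without exposed replicates 1 to 4. Against a fold of 1.2 (edgeR glmTreat), 2380 genes were higher and 2484 lower, against 4813 and 4850 in the test against no change, and 6 pathway genes were higher and 10 lower. Library size alone moved the median log2 fold change of all genes from 0.023 to 0.104 and gave 5946 higher and 3756 lower genes. With the replicate number as a block, 4654 genes were higher and 4816 lower and no member changed its call; of 10 pairs, 0 correlated best with their own number. With each library left out in turn, 4631 to 4811 genes were higher and 4750 to 4868 lower. Ckb, with as few as 80 reads in a library, had the widest range of the 8 genes over alternatives, from -0.891 to -0.493 on the log2 scale.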
